A study of Pinellia ternata with 12 samples.

Results

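The miR396 family was followed in leaves of Pinellia ternata, a medicinal herb, before and after heat. The members were the rows of the miRNA table whose name, after the species prefix, is miR396 followed by a letter, a hyphen or nothing. This gave 40 of 1597 miRNA names. They were compared between 3 control libraries (replicates C1 to C3, seedlings kept at 25 ℃, 0 h of heat, day 0) and 3 heat libraries (G1 to G3, 40 ℃ for 24 h, day 1). Both groups were leaves of seedlings raised from tubers in an incubator, with light and photoperiod the same. Because the treatment field reads heat-treated for every library, titles and days set the groups. The controls were sampled a day before the heated leaves, so that heat and time cannot be told apart. The labels do not say how many plants went into a library, and p-values measure the spread between these libraries. RNA-seq libraries with the same group names, 3 and 3, gave the unigene values. The leaf label was not checked against marker genes because the unigene table carries no gene names.

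In plants, miR396 is cut from a hairpin precursor whose arms give a 5p and a 3p mature RNA. The 5p RNA is known to direct cleavage of mRNAs of growth-regulating factors (GRFs), transcription factors that keep leaf cells dividing and that work together with GRF-interacting factors (GIFs). Higher miR396 is associated with fewer dividing cells and smaller leaves in Arabidopsis. The 3p RNA comes from the other arm of the same hairpin and has fewer described targets.

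The names are entries of a miRNA database for 18 other plant species, and none is a P. ternata locus. Each of the 40 names stood for a sequence of its own. Names were split by sequence, since many carry no arm. A name was of the 5p type when its sequence held the letters UUGAAC and of the 3p type otherwise. The 5p type had 20 names, of which 4 end in 5p and 16 state no arm. The 3p type also had 20 names, of which 16 end in 3p and 4 state no arm (cca-miR396c, gma-miR396d, gma-miR396j and csi-miR396c).

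Most of the abundant 5p names differed at 1 base inside the seed, bases 2 to 8, a stretch whose pairing with the target matters most; in gma-miR396h the seed is shifted by a base. The sequences of the most abundant 5p names are shown 5′ to 3′ with the seed in capitals, because their shares of the family's reads differed between libraries. osa-miR396g is added as a name called lower, chosen after its values were seen.
smo-miR396: uUCCACGGcuuucuugaacc
ptc-miR396g-5p: uUCCACGGcuuucuugaacuu
atr-miR396d: cUCCACGGcuuucuugaacuu
ptc-miR396f: uUCCACGGcuuucuugaacug
gma-miR396e: uUCCACAGcuuucuugaacugu
gma-miR396h: uCCACAGCuuucuugaacug
vvi-miR396a: uUCCACAGcuuucuugaacua
ath-miR396b-5p: uUCCACAGcuuucuugaacuu
osa-miR396g: uCCACAGGcuuucuugaacgg
Against smo-miR396, with positions counted from 1 at the 5′ end, ptc-miR396g-5p differed over the shared length by C20U alone. gma-miR396e, vvi-miR396a and ath-miR396b-5p each differed by G7A and C20U. Names with the letters CACGGC are called the G-form here (5 names), names with CACAGC the A-form (8 names) and names with the additional G of CACAGGC the insert form (5 names). The other 2 names hold none of these. The seed UCCACGG was shared by 4 names and the seed UCCACAG by 7, of which 2 (sbi-miR396d and zma-miR396c) are of the insert form.

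The 3p names carried the complement of these letters. Their sequences are shown in the same way, because most names called lower after heat are of this type.
zma-miR396e-3p: gGUCAAGAaagccgugggaag
ptc-miR396g-3p: cUCAAGAAagccgugggaaaa
cca-miR396a-3p: gUUCAAGAaagcugugggaaa
cca-miR396c: uUCAAGAAagcugugggaaaa
stu-miR396-3p: gUCCAAGAaagcugugggaaa
ama-miR396-3p: aAGCUCAAgaaagcuguggga
gma-miR396j: aUUCAAGAuagcuguggaaaa
ath-miR396a-3p: gUUCAAUAaagcugugggaag
ptc-miR396e-3p: cUCAAGAAagcugugggaga
The reverse complement of CACAGC is GCUGUG, and that of CACGGC is GCCGUG. The 14 names with GCUGUGG are called the U-form and the 2 names with GCCGUGG the C-form, and 4 names hold neither. Against cca-miR396a-3p, stu-miR396-3p differed by U3C alone, and ath-miR396a-3p by G7U and A21G. Names this close can share reads, and how reads that match several names were assigned is not given in the sources used here. What part this has in the differences between names was not tested.

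Levels are in RPM, the reads of a name scaled to a total of 1000000 reads assigned to the listed miRNAs. All 9582 values of the table came out as whole reads within 0.01 of a read, so the depth was known: controls held 871814 to 2039055 assigned reads and heat libraries 479324 to 1475482. A read was worth 0.490 RPM in C2, the deepest library, and 2.09 RPM in G2, the shallowest. The miR396 names held 896997 of 6826955 reads. 5 names had under 20 reads over all libraries, and 27 were above 0 in every library. A count of 0 allows up to 3 reads, which is 1.47 to 3.44 RPM in a control library and 2.03 to 6.26 RPM in a heat library.

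C2 stood apart from the other 5 libraries in the make-up of the family. The A-form made up 87.9% of 5p-type reads in C2 (95% Wilson interval 87.8 to 88.0, counting error only). It made up 8.08% in C1, 7.10% in C3, 6.89% in G1, 9.61% in G2 and 8.92% in G3. The G-form made up 11.9% in C2 and 90.2 to 92.3% in the other libraries. The share of A-form and G-form reads was thus alike in C1, C3 and the heat libraries, and turned round in C2. On the level scale, the A-form summed to 253216 RPM in C2, 38.3 times the mean of C1 and C3, while the G-form summed to 34394 RPM, 0.438 times that mean.

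gma-miR396e, the soybean A-form entry, held most of this. It had 217089 RPM in C2 and was there the most abundant of all 1597 names. It had 2518 RPM in C1, 1612 in C3, 747 in G1, 6042 in G2 and 306 in G3, and its rank in these 5 libraries lay between 28 and 96. gma-miR396h, shorter by a base at either end, followed it with 23865 RPM in C2 against 274 in C1, 231 in C3, 169 in G1, 753 in G2 and 50.2 in G3. Both names were over 30 times higher in C2 than in any other library (35.9 and 31.7 times), and in both the other controls lay inside the range of the heat libraries.

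The excess in C2 did not follow the seed base alone. ptc-miR396f is a G-form name that differs from ptc-miR396g-5p in its last base. It had 5182 RPM in C2, against 186 in C1, 16.1 in C3, 18.3 in G1, 18.8 in G2 and 23.0 in G3. vvi-miR396a is an A-form name ending in another base, and its C2 level of 2482 RPM lay below C1 (5075) and C3 (2658). Nor did it follow the last bases alone. The 6 names ending in GAACUG or GAACUGU summed to 246400 RPM in C2, 101 times the mean of C1 and C3, most of it gma-miR396e. Of these, sbi-miR396d and zma-miR396c, with 71 and 4 reads in all, had 2.94 and 0.981 RPM in C2, within the range of the other libraries. ath-miR396b-5p ends in GAACUU like ptc-miR396g-5p and was 43.2 times higher in C2 than in any other library. These comparisons were chosen after the values were seen and have no test.

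Some 3p names were also far higher in C2. The 3 U-form names with CAAUAAA (ath-miR396a-3p, gma-miR396a-3p and zma-miR396b-3p) summed to 1399 RPM in C2, 44.4 in C1, 0 in C3, and 0.964, 4.17 and 1.36 in G1 to G3. Of the 9 U-form names with CAAGAAA, ama-miR396-3p, ath-miR396b-3p, ptc-miR396e-3p and zma-miR396g-3p were also 9.53 to 25.8 times higher in C2 than in any other library. The sum of these 9 names was 4072 RPM in C2, 3292 in C1 and 2240 in C3, and cca-miR396a-3p, the most abundant of them, was lower in C2 (1949) than in C1 (2359). Over the whole family, 14 of 40 names (35%) had a log2(RPM + 1) in C2 at least 3 above every other library. The same held for 109 of all 1597 names (6.83%). These 14 were 5 A-form, 1 G-form and 8 U-form names. What sets C2 apart was not tested, and the summed levels, the limma counts of calls and the fold changes of single names are given with and without it.

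**Figure D1:**
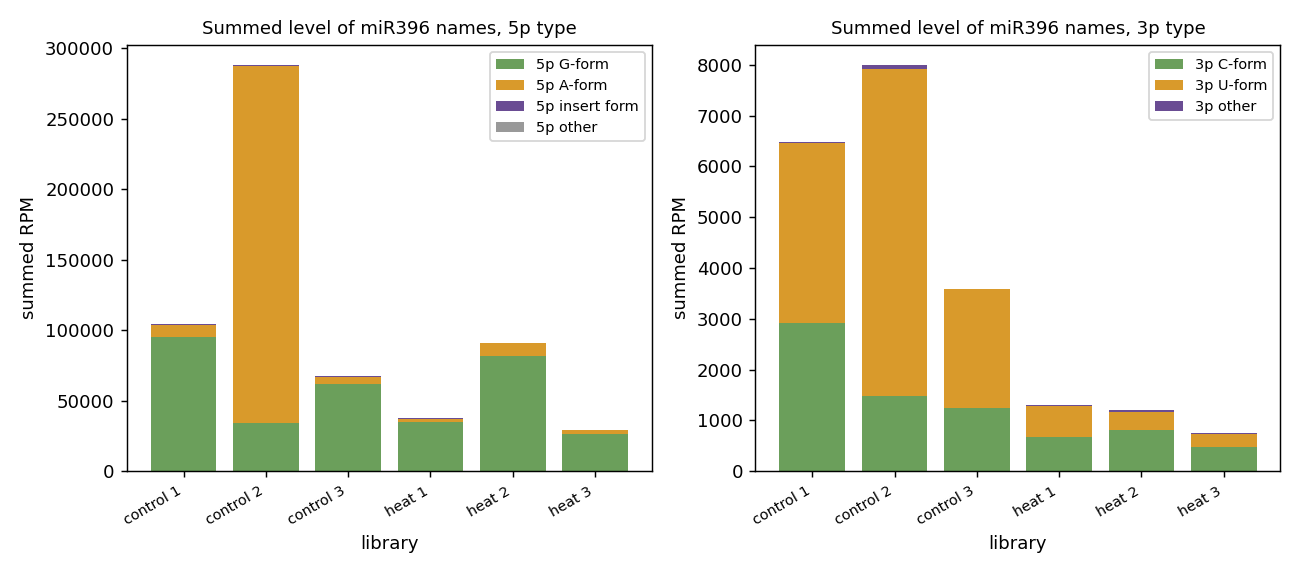
Summed RPM of the 5p-type names (left) and the 3p-type names (right) in each library, stacked by form. In C2 the A-form fills most of the 5p bar (253216 of 288035 RPM), while in the other 5 libraries the G-form does; the 3p bars of the heat libraries (761 to 1312 RPM) all lie below those of the controls (3594 to 8000 RPM).

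The summed 5p level overlapped between the groups, and the summed 3p level did not. The 5p type summed to 104672 RPM in C1, 288035 in C2 and 67161 in C3, and to 37507, 90830 and 29475 in G1 to G3. G2 lay above C3. The log2 ratio of the group means, heat over control, was -1.54 with all libraries and -0.71 without C2. The 3p type summed to 6478, 8000 and 3594 RPM in the controls and to 1312, 1208 and 761 in the heat libraries. Every control was above every heat library, with a log2 ratio of -2.46, or -2.20 without C2. Sums over the chosen names were not tested.

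The balance of the arms moved with these sums. The 5p sum was 16.2, 36.0 and 18.7 times the 3p sum in C1 to C3, and 28.6, 75.2 and 38.7 times in G1 to G3. With C2 the ranges overlapped, since C2 lay above G1, and without C2 both remaining controls lay below all heat libraries. Within the 3p type the U-form held 54.6%, 80.7% and 64.9% of reads in the controls and 47.0%, 29.4% and 34.4% in the heat libraries. The U-form sum was 3539, 6452 and 2333 RPM in the controls and 616, 355 and 262 in the heat libraries (log2 ratio -3.32, or -2.84 without C2). The C-form sum was 2925, 1472 and 1248 RPM against 677, 820 and 479 (log2 ratio -1.51, or -1.66 without C2). Both 3p forms were thus lower in every heat library than in any control. Their difference was not tested.

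The 5p forms gave smaller or less even ratios. The G-form sum was 95240, 34394 and 61946 RPM in the controls and 34633, 81940 and 26654 in the heat libraries, a log2 ratio of -0.42, or -0.72 without C2. The groups overlapped, with G2 above both C2 and C3. The A-form sum was 8453, 253216 and 4771 RPM against 2586, 8727 and 2628, and its log2 ratio went from -4.26 to -0.51 once C2 was left out. The insert form was rare, with 941, 395 and 423 RPM in the controls and 270, 136 and 180 in the heat libraries, and its groups did not overlap (log2 ratio -1.59, or -1.81 without C2). This sum was almost wholly osa-miR396g, and 3 of the 5 insert-form names, each rare, had log2 fold changes above 0 (0.31 to 1.68, or 0.32 to 1.996 without C2).

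Each name was then tested with limma on log2(RPM + 1), fitted on all 1597 names. Calls followed the rule of the study's methods, an unadjusted p under 0.05 with at least a change of 1 on the log2 scale. 10 miR396 names were called lower after heat, 2 of the 5p type and 8 of the 3p type, and 0 were called higher. Over all names 114 were called lower (7.14%) and 34 higher (2.13%). Without C2, 8 names were called lower, 2 of the 5p type and 6 of the 3p type, against 4.45% of all names, and 0 higher, against 1.94%. 7 names were called in both fits. With limma and with edgeR, no miR396 name passed after Benjamini-Hochberg adjustment over all names. In the limma fit of all names 0 lower and 1 higher (0.0626%) passed it. The smallest adjusted p was 0.280 with limma, 0.556 without C2 and 0.297 with edgeR's quasi-likelihood test on the recovered reads. edgeR called 8 of the 24 miR396 names it tested lower at an unadjusted p (all names tested: 8.5%), and 4 without C2 (4.58%). It called 0 higher in either fit, beside 7.12% and 3.62% of all names it tested.

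DESeq2 on the recovered reads differed here. Of 23 miR396 names with an adjusted p, 4 were lower at an adjusted p under 0.05 with a change over 1 on the log2 scale. These were stu-miR396-3p (log2 fold change -3.10, DESeq2 adjusted p = 0.0039), ath-miR396b-3p (-6.06, 0.0085), cca-miR396a-3p (-3.21, 0.035) and ptc-miR396e-3p (-6.26, 0.046). Of all 847 names with an adjusted p, 1.65% were called lower. Without C2, an alternative added after the data were seen, stu-miR396-3p passed (-2.96, DESeq2 adjusted p = 0.028), cca-miR396a-3p did not (-3.25, DESeq2 adjusted p = 0.065), and the other 2 were given no adjusted p (all names: 1.16%). DESeq2 gave no p at all for 9 miR396 names with all libraries, among them gma-miR396e, gma-miR396h and ath-miR396a-3p. Each of these 9 names was highest in C2, and each was given a p when C2 was left out.

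The size of these counts depended on single libraries. The 3p count went from 8 to 5 without C1, to 11 without C3, to 5 without G1, to 4 without G2 and to 3 without G3. In the same fits the count of all names called lower, 114 in the main fit, was 94, 171, 114, 63 and 72. The 5p count of 2 went to 1 without C1 or G3 and to 5 without C3. sbi-miR396d, an insert-form name chosen after its values were seen, was called higher without G2, by DESeq2 and by unfiltered edgeR. It had 71 reads in all, with 43.4 RPM in G1, 0 in G2, 11.5 in G3, and 3.25, 2.94 and 0 in the controls.

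The median log2 fold change was -0.37 over all 1597 names, so that RPM values as a whole were shifted, and it was -0.12 without C2. Against this, the 5p type had a median of -0.90 (-0.80 without C2) and the 3p type one of -1.75 (-1.19 without C2). The 3p median was the same, -1.75, with the 2 names at 0 under heat and above the limit in the controls set to their bound. Both already lay below the median and their bounds are lower still, so this step could not change it. 17 of 20 5p names and 19 of 20 3p names lay below 0, or 14 and 15 without C2, beside 66.0% and 53.8% of all names. By form, the U-form had a median of -2.996 (-1.73 without C2), the C-form -1.13 (-1.28), the A-form -1.79 (-0.64) and the G-form -0.48 (-0.97). The insert form had a median of 0.31 (0.32 without C2), with 2 of 5 names below 0. All 14 U-form names lay below 0 with C2 and 12 without it.

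**Figure D2:**
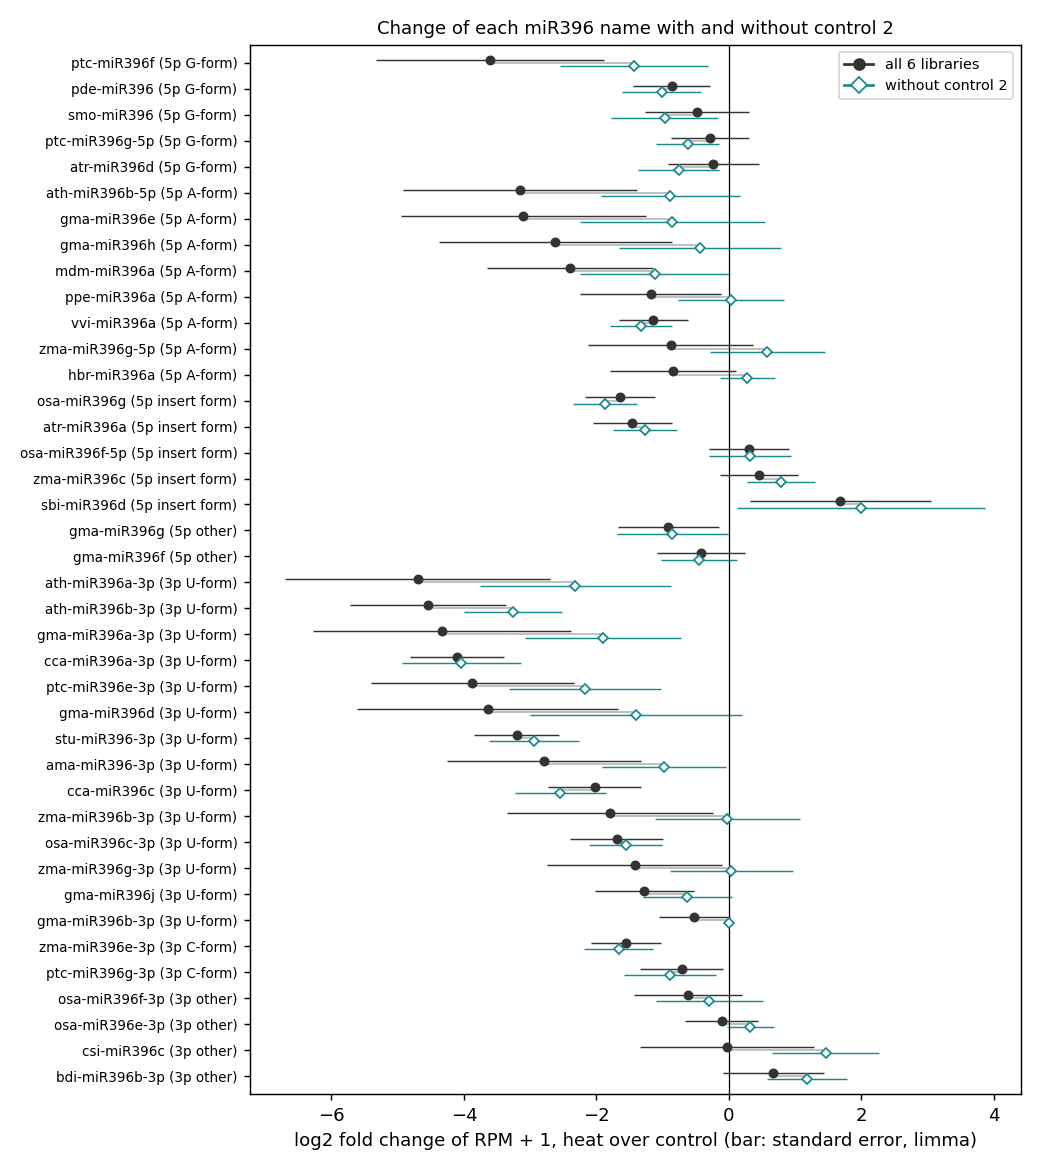
Log2 fold change of RPM + 1, heat over control, of each of the 40 names with its limma standard error, from all 6 libraries (filled) and without C2 (open). Names such as cca-miR396a-3p (-4.10 and -4.04) and stu-miR396-3p (-3.20 and -2.94) hardly move, while gma-miR396e goes from -3.10 to -0.85 and ptc-miR396f from -3.61 to -1.43.

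cca-miR396a-3p, the most abundant U-form name, had the smallest limma p of the miR396 names. It had 2359, 1949 and 1227 RPM in the controls and 296, 52.2 and 69.8 in the heat libraries. The controls lay above all heat libraries, with no overlap. Its log2 fold change was -4.10 (SE 0.71, limma unadjusted p = 0.00035, adjusted p = 0.280), and -4.04 (SE 0.90) without C2. edgeR gave -3.36 (unadjusted p = 0.0073).

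stu-miR396-3p, which differs from it by 1 base, had 388, 349 and 106 RPM in the controls and 27.0, 33.4 and 18.3 in the heat libraries. The groups did not overlap. The log2 fold change was -3.20 (SE 0.64, limma adjusted p = 0.304) and -2.94 without C2. With edgeR (unadjusted p = 0.0028) and with DESeq2 its p was smaller than that of cca-miR396a-3p. stu-miR396-3p and cca-miR396a-3p were the 2 names among the 16 most abundant whose call was kept under every setting tried at an unadjusted p.

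zma-miR396e-3p, the most abundant 3p name and a C-form one, had 2756, 1347 and 1053 RPM in the controls and 564, 634 and 435 in the heat libraries. Here too every control was higher. Its log2 fold change was -1.55 (SE 0.53, limma adjusted p = 0.482) and -1.66 without C2. The other C-form name, ptc-miR396g-3p, was not called and had overlapping groups, with 169, 126 and 195 RPM against 113, 186 and 44.1.

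cca-miR396c carries no arm in its name and is of the 3p type by sequence. It had 458, 215 and 867 RPM in the controls and 214, 56.3 and 102 in the heat libraries, so that the lowest control (C2) and the highest heat library (G1) were nearly level. The log2 fold change was -2.03 (SE 0.70, limma adjusted p = 0.482), and -2.54 without C2.

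The differences of the other named 3p members were smaller without C2, where limma called none of them. ath-miR396a-3p had 23.8, 702 and 0 RPM in the controls and 0 in every heat library. Its control mean was at least 241-fold higher than the limit of 3 reads over the heat group (1.00 RPM), and at least 11.9-fold higher without C2. It was called lower with C2 only. ptc-miR396e-3p, which the study set against a unigene, had 18.4, 220 and 1.15 RPM against 1.93, 0 and 0, with a log2 fold change of -3.87 (SE 1.53), called, and -2.17 (SE 1.15) without C2, not called. ama-miR396-3p had 39.0, 1007 and 12.6 RPM against 6.75, 29.2 and 6.10 and was called in neither fit (-2.79, or -0.98 without C2). gma-miR396j had 183, 503 and 92.9 RPM against 65.5, 171 and 52.9, a log2 fold change of -1.27, or -0.63 without C2, called in neither fit. In these 4 names C2 was the highest library, and C3 lay within the range of the heat libraries.

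The other names called lower, named after their values were seen, were ath-miR396b-3p and osa-miR396c-3p among the 3p names and osa-miR396g and atr-miR396a among the 5p names. osa-miR396c-3p had 37 reads in all and a log2 fold change of -1.69, or -1.56 without C2, called in both fits. atr-miR396a had 12 reads and -1.45, or -1.27 without C2, where it was no longer called (limma unadjusted p = 0.053). ath-miR396b-3p had 24.9, 237 and 9.18 RPM in the controls and 1.93, 0 and 0.678 in the heat libraries, a log2 fold change of -4.55, or -3.26 without C2, called in both fits. 3 names were at 0 in all heat libraries: ath-miR396a-3p, gma-miR396a-3p and gma-miR396b-3p, the last with 4 reads in C2 alone. Control libraries lay above all heat libraries in 6 of 20 3p names (all 1597 names: 9.89%), and also in 6 without C2 (13.6%). Heat libraries lay above all controls in 0 miR396 names (all names: 4.51%), and in 1 3p name without C2 (6.76%).

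The remaining 3p names were called in neither fit. Among the U-form, gma-miR396a-3p, gma-miR396d, zma-miR396b-3p and zma-miR396g-3p were highest in C2, at 581, 478, 117 and 82.9 RPM, and at most 19.5 RPM in any other library. The 4 names of neither form had 4 to 107 reads in all. Of these, bdi-miR396b-3p had 3.25, 15.7 and 6.88 RPM in the controls and 7.71, 14.6 and 15.6 in the heat libraries, and it was the name in which the heat libraries lay above both C1 and C3.

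**Figure D3:**
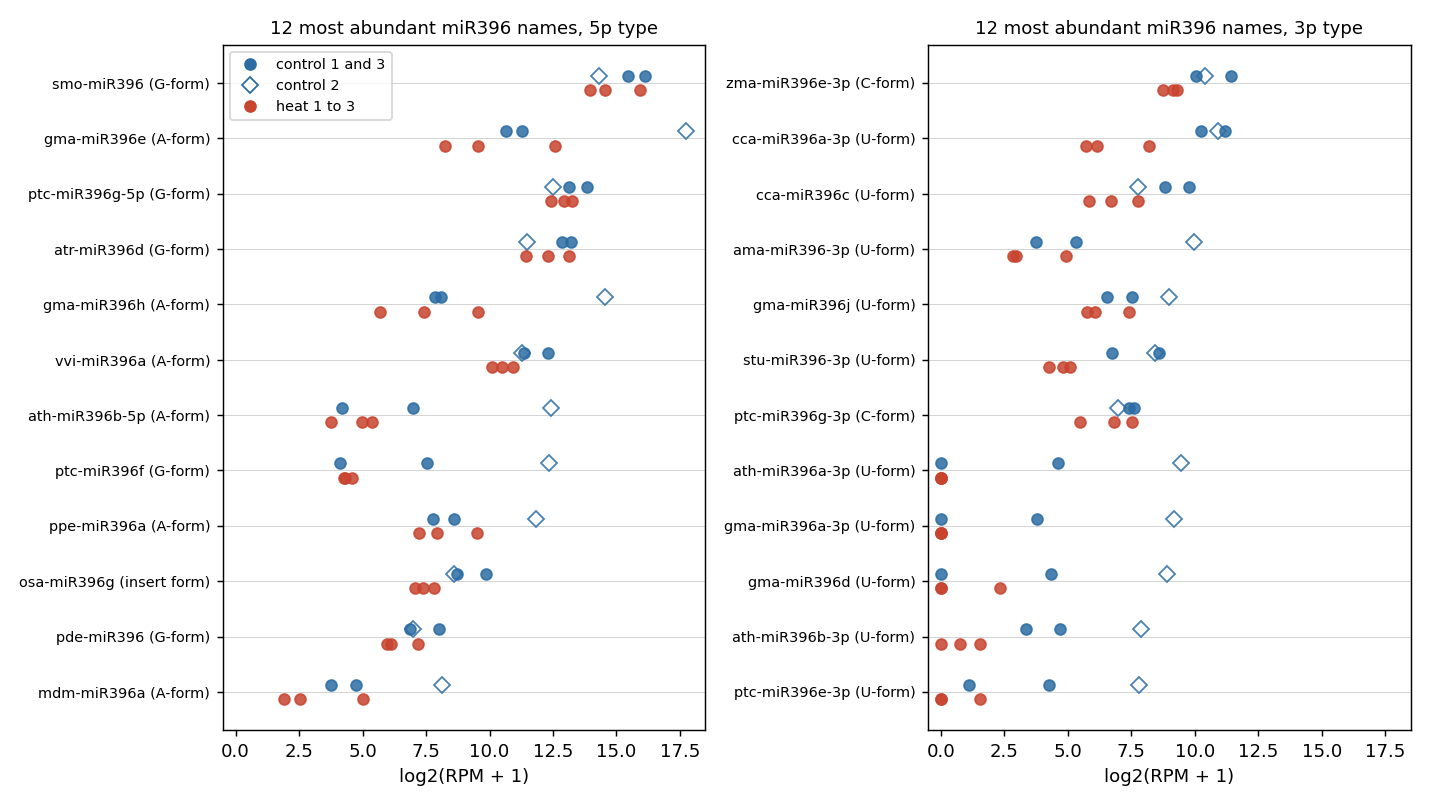
log2(RPM + 1) of the 12 most abundant 5p-type names (left) and 3p-type names (right) in every library; open diamonds mark C2. The G-form names at the top overlap between control and heat, C2 lies far to the right in gma-miR396e, gma-miR396h, ath-miR396b-5p and ptc-miR396f, and zma-miR396e-3p, cca-miR396a-3p and stu-miR396-3p separate the groups.

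The abundant G-form names of the 5p arm, the arm known to act on GRF mRNAs, were not called. smo-miR396, the spikemoss G-form entry, led the family outside C2. It had 70452, 20476 and 45372 RPM in the controls and 24007, 63147 and 15883 in the heat libraries, and ranked between 2 and 11 of all names. G2 lay above C2 and C3. Its log2 fold change was -0.48 (SE 0.79) with all libraries and -0.97 (SE 0.81) without C2, called in neither.

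The next G-form names also had overlapping groups. ptc-miR396g-5p had 14828, 5757 and 9005 RPM against 5527, 9757 and 7896, a log2 fold change of -0.28 (SE 0.58), and -0.62 (SE 0.48) without C2. atr-miR396d had 9518, 2854 and 7436 RPM against 5021, 8871 and 2783. It had a log2 fold change of -0.23 (SE 0.68), and -0.75 (SE 0.61) without C2, and its sign turned to 0.0082 when RPM was rescaled by the median ratio. In these 3 names G2 was the highest heat library and C2 the lowest control.

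Of the A-form names, gma-miR396e had a log2 fold change of -3.10 (SE 1.85, limma unadjusted p = 0.131) and -0.85 (SE 1.40) without C2. gma-miR396h had -2.62 (SE 1.76), and -0.43 (SE 1.22) without C2. Both are among the names the study set against a unigene. With edgeR on reads they were called lower with C2 (-5.004 and -4.65), and without it the values were 0.24 and 0.40, not called. ath-miR396b-5p, with 126, 5423 and 17.2 RPM against 30.8, 12.5 and 40.0, had -3.16 (SE 1.77), and -0.88 without C2. For these 3 names the size of the difference rested on C2.

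vvi-miR396a was the A-form name in which C2 did not stand out. It had 5075, 2482 and 2658 RPM in the controls and 1452, 1099 and 1953 in the heat libraries, without overlap. The log2 fold change was -1.14 (SE 0.52, limma unadjusted p = 0.060), and -1.33 (SE 0.46, unadjusted p = 0.041) without C2, where it was called. osa-miR396g, an insert-form name, had 934, 387 and 421 RPM against 225, 131 and 167, and was called with C2 (-1.64, SE 0.53) and without it (-1.87, SE 0.48). Control libraries lay above all heat libraries in 3 of 20 5p names, with or without C2 (all 1597 names: 9.89% with C2 and 13.6% without).

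The remaining 5p names were called in neither fit, other than atr-miR396a above. The A-form names ppe-miR396a, mdm-miR396a, zma-miR396g-5p and hbr-miR396a were highest in C2, at 3631, 278, 260 and 189 RPM. Their log2 fold changes lay between -2.40 and -0.85 with C2 and between -1.11 and 0.58 without it. The G-form name pde-miR396 had 257, 126 and 116 RPM in the controls and 60.7, 146 and 69.1 in the heat libraries, a log2 fold change of -0.86, or -1.01 without C2. gma-miR396f and gma-miR396g, of neither form, stayed under 20 RPM in every library, and osa-miR396f-5p and zma-miR396c had 4 reads each.

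Scaled to the clean reads of a library rather than to its assigned reads, and brought to the same mean level so that the pseudocount kept its weight, the counts called lower with limma were 1 5p and 7 3p names, and 0 and 3 without C2. Of all 1597 names, 84 were called lower on this scale, and 31 without C2. This scaling was added after the data were seen. Without the step to the same mean level the pseudocount weighed more. The counts were then 0 and 4 (45 of all names), and 0 and 2 without C2 (19 of all names). Of the named members, cca-miR396a-3p and stu-miR396-3p were called on every scale tried. The share of clean reads that was assigned to a listed miRNA ran from 3.19% (G2) to 7.97% (G3).

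The unigenes predicted as miR396 targets were read in the RNA-seq libraries. The study's prediction table, held here in part, listed 132 unigenes for 15 of the miR396 names, 65 of them for 5p-type and 69 for 3p-type names. The study predicted targets for miRNAs it had called different between these same groups, so the list depends on these libraries. The abundant G-form names smo-miR396, ptc-miR396g-5p and atr-miR396d were not among the 15, and the values below do not cover the whole family's targets. 66 had a mean of at least 1 TPM (transcripts scaled to the same total) and were tested with limma on log2(TPM + 1) over all 68978 such unigenes. 2 were called higher and 0 lower, where a call needed a change over 1 on the log2 scale and an adjusted p under 0.05. Of all unigenes tested, 6% were called higher and 4.05% lower. At an unadjusted p under 0.05, 16 of the 66 lay higher and 4 lower, beside 18.2% and 10.1% of all unigenes tested. 1 of the 2 is a unigene the study had chosen for its direction. The median log2 fold change of the predicted targets was 0.44, beside 0.17 over all unigenes tested. The count of 2 went to 0 without control replicate 2, control replicate 3 or heat replicate 3, and to 1 without control replicate 1 or heat replicate 2 of the RNA-seq libraries.

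TRINITY_DN74739_c4_g1, an uncharacterized protein that the study set against gma-miR396e and gma-miR396h, had 3.93, 3.56 and 2.36 TPM in the controls and 8.54, 6.90 and 11.4 in the heat libraries. The groups did not overlap, but the study chose this pair for its opposite directions, so no test is given. TRINITY_DN68263_c0_g2, a putative lysine-specific demethylase set against ptc-miR396e-3p, had 6.35, 7.87 and 4.12 TPM against 18.0, 15.6 and 15.4, chosen in the same way. In the RNA-seq libraries control replicate 2 lay below every heat library for both unigenes, as the other controls did. Without the miRNA-seq library C2, the log2 fold changes of the paired names went from -3.10 to -0.85 (gma-miR396e), from -2.62 to -0.43 (gma-miR396h) and from -3.87 to -2.17 (ptc-miR396e-3p). The labels do not say whether libraries of the same number came from the same plants, and a link between unigene and miRNA was not tested. TRINITY_DN58511_c0_g1, listed for ama-miR396-3p, had 1.44, 0.441 and 1.07 TPM against 2.59, 6.68 and 6.003 (log2 fold change 1.58, SE 0.36, limma adjusted p = 0.024).

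Unigenes listed for at least 5 miR396 names were not called. TRINITY_DN44982_c2_g1, listed for 6 names, had 4.21, 1.80 and 3.12 TPM in the controls and 5.47, 5.89 and 4.66 in the heat libraries, without overlap (log2 fold change 0.69, SE 0.30, limma adjusted p = 0.161). TRINITY_DN51714_c1_g3 and TRINITY_DN74400_c5_g3, each listed for 7 3p names, had log2 fold changes of 0.64 and 0.63. TRINITY_DN69676_c0_g2 and TRINITY_DN56219_c0_g2, each listed for 5 5p names, had 0.65 and -0.31. TRINITY_DN61433_c0_g4 was under the filter, at 0 to 0.771 TPM.

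None of the annotated unigenes at hand carried a GRF name, so the family's best-known targets were not analysed here. Of their partners, TRINITY_DN48595_c0_g1, annotated as a GRF-interacting factor, had 0.298, 0.143 and 0.244 TPM in the controls and 5.42, 7.59 and 3.75 in the heat libraries. Another unigene, TRINITY_DN70355_c4_g2, annotated by the study only as a calcium-responsive transcription coactivator, had 1.16, 1.16 and 0.627 TPM against 7.63, 9.32 and 8.31. Both were higher in every heat library than in any control. They were listed by the study as targets of another miRNA and for their opposite direction, and are given as values only.

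**Figure D4:**
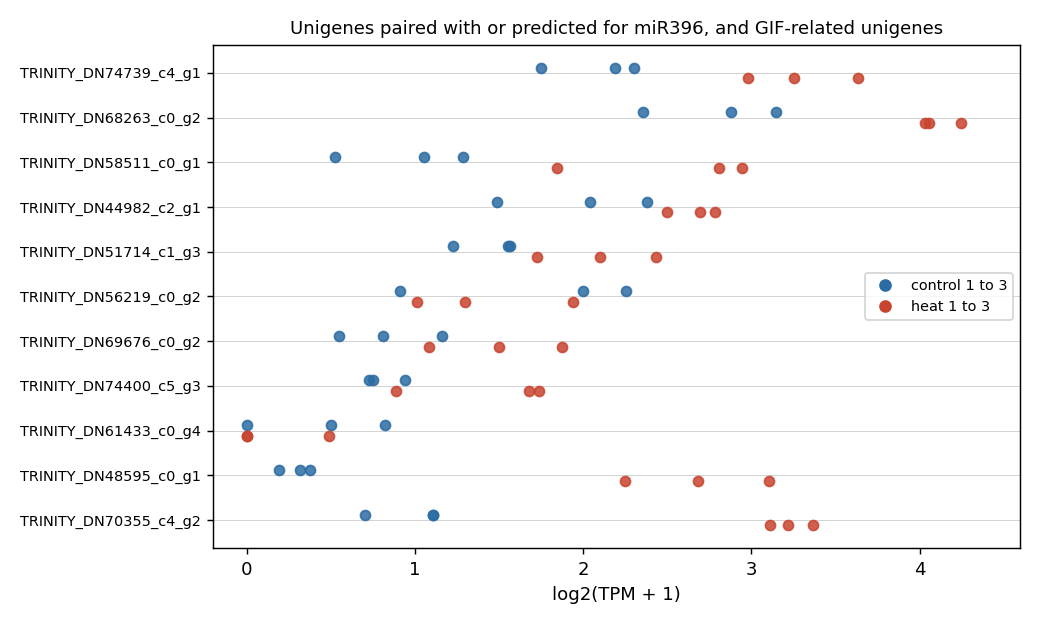
log2(TPM + 1) in each RNA-seq library of the unigenes paired with or predicted for miR396 names, and of the unigenes annotated as a GRF-interacting factor or a calcium-responsive coactivator. The heat libraries lie above the controls in the unigenes chosen for it, in TRINITY_DN58511_c0_g1, in TRINITY_DN44982_c2_g1 and in TRINITY_DN51714_c1_g3, and overlap them in TRINITY_DN56219_c0_g2.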

How the data were processed

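Small RNA and strand-specific RNA libraries of 6 leaf samples each were sequenced by the authors. For miRNAs, the authors trimmed reads with cutadapt and trimmomatic, removed Rfam matches, matched what remained to database miRNAs of plants, and the deposited values are RPM. For unigenes, they assembled reads with Trinity and deposited TPM values from Salmon, which keep no depth. How mismatches and multiple matches were handled is not given in the sources used here. RPM is a share of the reads assigned to the 1597 names, so a name that takes more reads lowers all others.

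Whole reads were recovered from the RPM steps (100.0% of values). Linear models were fitted with limma 3.58.1 (R 4.3.3, trended eBayes) on log2(RPM + 1) over all miRNAs and on log2(TPM + 1) over unigenes averaging 1 TPM or more, with a pseudocount of 1. edgeR 4.0.16 and DESeq2 1.42.0 on recovered reads, other pseudocounts, filters and scalings, and each library left out in turn were alternatives. limma and edgeR were tried on simulated data in which no library stood apart as C2 did. DESeq2 was not tried in this way. Sequences came from the study's supplementary miRNA list, and predicted targets from its prediction list by name only. Fold changes on these log scales understate the change of low names.

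The members, lists and tests were chosen with earlier results of these data known. Values are given for the 8 most abundant names of each type, gma-miR396e, gma-miR396h and ptc-miR396e-3p, any member called higher, the unigenes the study set against miR396 names or annotated as a GRF-interacting factor or a calcium-responsive coactivator, targets listed for at least 5 names, and the 3 most abundant called targets in each direction. Other names were chosen after their values were seen, and are marked so. Wilson intervals and the limit of 3 reads cover counting error only.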

Additional observations from a re-analysis of the deposited data

How the results depend on the processing

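The counts of names called lower (5p 2, 3p 8, all miRNAs 114) and higher (miR396 0, all miRNAs 34) moved with the processing. At an adjusted p under 0.05 they were 0 (5p), 0 (3p), 0 and 1 (all miRNAs, lower and higher). With a pseudocount of 5 RPM the 5p and 3p counts were 1 and 5 (90 of all miRNAs lower). They were 1 and 7 with a mean of at least 5 RPM (107 of all miRNAs lower) and with robust eBayes (113 of all miRNAs lower). With RPM rescaled by the median ratio or by TMM factors they were 1 and 6. Under the median ratio all miRNAs gave 76 lower and 57 higher calls, and under TMM factors 86 and 50, so that the split between directions moved with the scaling. Scaled to clean reads, the 5p and 3p counts were 0 and 4 (all miRNAs 45 and 21), and with quantile normalization 0 and 4 (42 and 77). edgeR with its filter gave 4 and 4 (68 and 57). Without the filter edgeR gave 4 and 10, and 1 higher (all miRNAs 147 and 51). DESeq2, which gave no p for 6 5p and 3 3p names, gave 0 and 7, and 1 higher (all miRNAs 92 and 60). The median log2 fold change of all miRNAs was -0.22 under the median ratio and -0.28 under TMM factors. Leaving out 1 library at a time gave 1 to 5 (5p), 3 to 11 (3p), 0 to 1 (higher), 63 to 171 (all lower) and 19 to 44 (all higher). The following alternatives were chosen after seeing the data. edgeR without control replicate 2 gave 1 and 3 (all lower 38). Clean-read scaling without control replicate 2 gave 0 and 2 (19 and 9). DESeq2 without control replicate 2 gave 1 and 6, 1 higher and 57 of all lower. Clean-read scaling at the RPM level gave 1 and 7 (84 of all lower), and 0 and 3 without control replicate 2 (31 of all lower). A total without gma-miR396e gave 3 and 7 (127 of all lower). For predicted targets, 2 were called higher and 0 lower; the count higher was 0 with no filter, 1 with a mean of at least 5 TPM, 1 under the median ratio, and 0 to 3 with a library left out.

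Same-numbered miRNA-seq libraries correlated in their deviations at -0.07, 0.08 and -0.09. With 3 libraries per group this cannot settle whether replicate numbers pair the libraries. With a replicate block 5 5p names and 9 3p names were called lower and 0 higher (all miRNAs 97 and 28), and 2 predicted targets were called higher. gma-miR396e (limma unadjusted p = 0.0059, adjusted p = 0.375), gma-miR396h (0.020 and 0.497) and ptc-miR396f (0.046 and 0.613) gained a call with the block. Of the 398 values with a p of 17 named members under alternatives, 329 kept direction and side of the threshold, 40 lost the call, 20 gained one and 9 changed sign. 6 values for which DESeq2 gave no p were left out. Those that changed sign were gma-miR396e (0.24) and gma-miR396h (0.40) with edgeR, and 0.18 and 0.37 with DESeq2, both without control replicate 2, ptc-miR396g-5p without control replicate 1 (0.0633, with -0.62 as the lowest value with a library left out), and atr-miR396d under the median ratio (0.0082), under quantile normalization (0.041) and with a library left out (-0.75 to 0.19). Depth limits the names with few reads, where 1 read is 0.490 to 2.09 RPM.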
